A study of Mus musculus with 6 samples.

Results

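The hyaluronan-proteoglycan matrix of the endocardial cushions and heart valves was examined here through 10 genes, *Has2*, *Hapln1*, *Vcan*, *Acan*, *Cd44*, *Adamts1*, *Adamts5*, *Adamts9*, *Sox9* and *Postn*, of the 45792 genes counted in whole mouse hearts at embryonic day 13.5. The genes were chosen by symbol, with the fold changes of these same hearts in view, so their differences between the groups are given as a description. How the fits called these genes is listed below beside the share over all genes, and nothing is read from it. All 10 had a row in the count table, and all 10 passed the filter on low counts that left 17125 genes. The hearts came from 3 embryos labelled wild-type (control) and 3 labelled *Tie2Cre* with *Ino80* flox/flox (mutant), and the labels give the strain of both groups as C57BL/6. *Tie2Cre* makes recombinase under an endothelial promoter, so that recombination reaches all cells of endothelial descent, among them the endocardium and the cushion mesenchyme that arises from it, and the floxed allele removes an exon of *Ino80*, a subunit of a chromatin remodelling complex. The methods describe crosses of Cre-carrying *Ino80* flox/+ males with *Ino80 fl/fl* females and transgenic mice of mixed background, so controls of this cross would carry a floxed allele that the labels do not mention.

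Hyaluronan is a long sugar polymer that is made at the cell membrane and swells with water. In the early heart it fills the space between endocardium and myocardium, and in the cushions it is the scaffold into which endocardial cells move when they become mesenchyme. Large proteoglycans that bind hyaluronan, of which versican is the main one in the heart, are locked onto it by link proteins, and Adamts proteases later cut versican as the cushions are remodelled into thin valve leaflets. Aggrecan is the related proteoglycan of cartilage, and valve precursor cells share several genes with cartilage cells, among them *Sox9*.

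The genes differed in direction between the groups. *Hapln1*, *Has2* and *Sox9* were higher in every mutant-labelled heart than in any control-labelled heart, and *Postn* and *Acan* were lower in every one. Over all tested genes, 14.3% were higher and 12.8% lower without overlap in the same way. *Vcan*, *Cd44*, *Adamts1*, *Adamts5* and *Adamts9* overlapped between the groups. By the sign of the log2 fold change, mutant-labelled over control-labelled, 7 genes were higher and 3 lower, with a median of 0.26 against -0.0017 over all 17125 genes. Because whole hearts were sequenced, fewer cells of a type and less RNA per cell cannot be told apart.

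The libraries held between 28948836 and 89675692 counts, and the deepest was a mutant-labelled one. Levels below are counts per M (mega) counts after scaling by trimmed mean of M-values (TMM), written CPM, and errors of group means are SD over 3 hearts. *Ino80* itself did not separate the labels, at 30.2, 31.6 and 32.7 CPM in control replicates 1 to 3 and 36.5, 33.7 and 31.8 CPM in mutant replicates 1 to 3. Its log2 fold change was 0.11 ± 0.08 (SE), with a Benjamini-Hochberg adjusted p of 0.47 in the quasi-likelihood fit of edgeR. Reads summed over all exons of *Ino80* in a heart that is mostly not endothelial do not check the loss of an exon, and every direction here rests on the labels. Heart muscle genes were abundant, with *Actc1* between 6962 and 8451 CPM, and the 4 genes of the pan-endothelial list summed to between 569 and 702 CPM in control-labelled and between 605 and 653 CPM in mutant-labelled hearts. The methods speak in general of littermate controls and of several litters, and the labels do not tie these hearts to litters, so p-values measure the spread between these hearts.

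The sequences 5' of 3 of these genes are shown because *Hapln1* and *Postn* had the clearest differences in opposite directions at a well-covered level and *Vcan* is the neighbour of *Hapln1*. Each is the run of 250 bases before a transcription start in the RefSeq promoter table of build GRCm38.p6, on the strand of the gene, and 7 of the 10 genes had an entry there, with 8 promoters in all. Capitals mark the forward TATA hexamer TATAAA, and bases are counted back from the start.
*Hapln1*, chr13:89540386-89540635, plus strand: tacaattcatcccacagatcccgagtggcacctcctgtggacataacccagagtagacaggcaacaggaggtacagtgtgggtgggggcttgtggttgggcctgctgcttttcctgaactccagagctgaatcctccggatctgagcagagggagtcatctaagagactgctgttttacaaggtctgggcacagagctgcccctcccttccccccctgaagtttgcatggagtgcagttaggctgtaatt
*Vcan*, chr13:89742513-89742762, minus strand: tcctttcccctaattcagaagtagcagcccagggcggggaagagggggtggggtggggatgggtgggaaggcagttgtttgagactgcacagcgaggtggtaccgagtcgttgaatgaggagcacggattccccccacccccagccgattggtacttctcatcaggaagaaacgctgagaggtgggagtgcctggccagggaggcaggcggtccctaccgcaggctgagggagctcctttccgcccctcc
*Postn*, chr3:54360857-54361106, plus strand: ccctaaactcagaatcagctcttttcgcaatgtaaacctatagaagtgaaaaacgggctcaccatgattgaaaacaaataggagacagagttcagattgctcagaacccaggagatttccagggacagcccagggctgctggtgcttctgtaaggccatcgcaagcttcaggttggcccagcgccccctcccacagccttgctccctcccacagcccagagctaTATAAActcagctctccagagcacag
The *Postn* promoter printed here held the hexamer with its first base at -26, and the *Adamts1* promoter, not printed, held it at -32. The other 6 promoters did not hold these letters, and 7.59% of the 32851 promoters in the table did. Among those 6 was another *Postn* promoter, chr3:54359017-54359266, not printed. The hexamers ACAAAG and ACAATG, which Sox proteins bind, were searched on both strands and occurred in 1 of the 8 promoters, that of *Adamts1* at -217, against 25.2% of all promoters. A match is a description of the sequence and not a site of binding. The *Hapln1* start in RefSeq lies inside the gene as GENCODE draws it.

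*Hapln1* and *Vcan* lie side by side on chromosome 13 of GRCm38, *Hapln1* from 89539796 to 89611652 on the plus strand and *Vcan* from 89655312 to 89742509 on the minus strand, with a gap of 43659 bases and 0 coding genes between them, so that their 3' ends face each other. *Acan* likewise neighbours a link protein gene, *Hapln3*, on chromosome 7 (*Acan* from 79053483 to 79115099). The gap there is 2 bases, with *Acan* on the plus strand and *Hapln3* on the minus strand. *Adamts1* (85793827 to 85803113) and *Adamts5* (85856173 to 85901828) follow each other on the minus strand of chromosome 16 with a gap of 53059 bases. Of the others, *Has2* lies on chromosome 15 from 56665627 to 56694539, *Cd44* on chromosome 2 from 102811141 to 102901665, *Adamts9* on chromosome 6 from 92772699 to 92943492, *Sox9* on chromosome 11 from 112782224 to 112787760 and *Postn* on chromosome 3 from 54361109 to 54391037. Exons of *Has2* share 182 bases with the antisense gene *Has2os*, and exons of *Adamts9* share 1381 and 424 bases with 2 genes on the other strand. Whether strand was used in counting is not given in the sources used here, so the counts of *Has2* and *Adamts9* are uncertain to that extent. *Vcan*, *Cd44* and *Postn* have 9 annotated transcripts each, and counts per gene do not separate their splice forms.

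Levels of different genes were compared as CPM per kb of exon. Averaged over all hearts of either label, the level of *Postn* was higher than that of 93.8% of tested genes. In the control-labelled hearts alone *Postn* stood highest at 63.7 ± 5.27 CPM per kb. *Vcan* followed at 14.3 ± 3.63 and *Adamts1* at 14.2 ± 2.78 CPM per kb, which did not differ beyond their spread. *Cd44* had 8.11 ± 2.20 CPM per kb. *Adamts9*, at 4.64 ± 0.67, *Sox9*, at 4.02 ± 0.79, and *Hapln1*, at 3.44 ± 2.30 CPM per kb, formed a group whose neighbours again did not differ beyond their spread. *Adamts5* was at 1.50 ± 0.47 and *Has2* at 0.85 ± 0.14 CPM per kb. *Acan* was at 0.13 ± 0.04 CPM per kb, and only 2.35% of tested genes fell below its level averaged over all hearts of either label. In the mutant-labelled hearts the order differed within that group: *Hapln1*, at 8.23 ± 1.32 CPM per kb, stood next below *Cd44*, at 10.1 ± 0.53, and was followed by *Sox9*, at 5.20 ± 0.25, and then *Adamts9*, at 3.80 ± 0.43 CPM per kb.

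**Figure D1:**
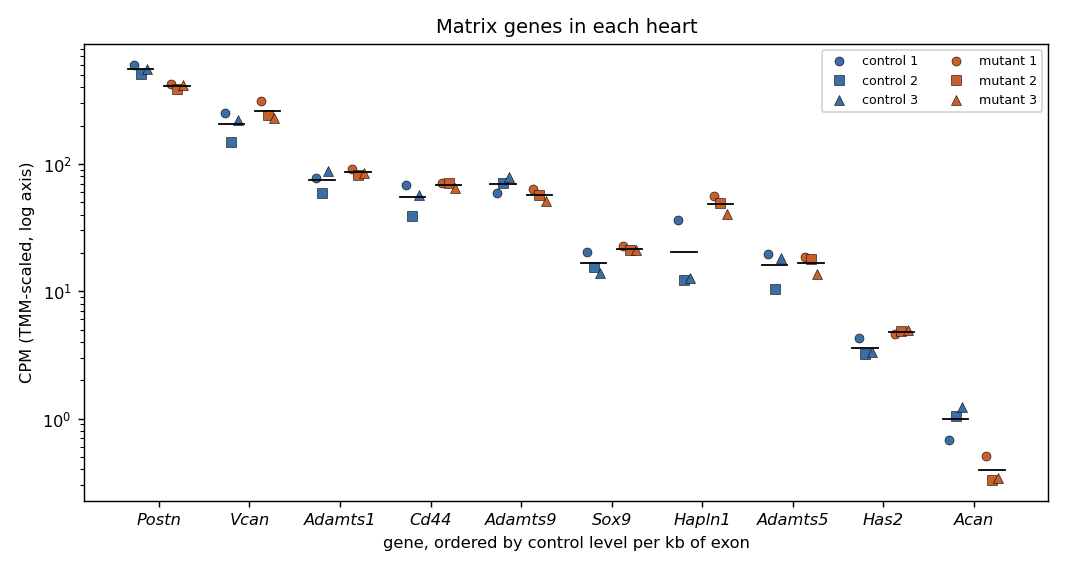
CPM (log axis) of the 10 genes in each heart, control-labelled in blue and mutant-labelled in orange, with the mean of 3 hearts as a line. The mutant-labelled hearts lie between 40.5 and 56.1 CPM for *Hapln1*, above all controls, and between 387 and 426 CPM for *Postn*, below all controls.

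*Has2* encodes the hyaluronan synthase that makes most hyaluronan of the developing heart. It had 4.26, 3.20 and 3.33 CPM in control replicates 1 to 3 and 4.62, 4.89 and 4.92 CPM in mutant replicates 1 to 3. The mutant-labelled hearts were all higher, but control replicate 1 came close to them. The group means were 3.60 ± 0.57 and 4.81 ± 0.17 CPM, a log2 fold change of 0.41 ± 0.17 (SE), and leaving out each heart in turn gave 0.34 to 0.56. Between 94 and 427 reads per heart stood behind these values.

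*Hapln1* encodes the link protein that fastens versican to hyaluronan. Its level was 36.0, 12.3 and 12.7 CPM in control replicates 1 to 3 and 56.1, 49.1 and 40.5 CPM in mutant replicates 1 to 3. The groups did not overlap, yet control replicate 1 was far above the other controls and lay closer to mutant replicate 3 than to them. The means were 20.3 ± 13.6 and 48.6 ± 7.82 CPM, a 2.39-fold difference, and the log2 fold change of 1.25 ± 0.39 (SE) was the highest of the 10 genes. Without control replicate 1 it was 1.96, and leaving out any other heart gave 0.99 to 1.37.

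*Vcan* encodes versican, the large chondroitin sulfate proteoglycan of the cushions. It had 251, 149 and 221 CPM in control replicates 1 to 3 and 310, 241 and 229 CPM in mutant replicates 1 to 3. Control replicate 1 lay above mutant replicates 2 and 3, and control replicate 2 lay below all other hearts. The log2 fold change was 0.33 ± 0.19 (SE) and ranged from 0.14 without control replicate 2 to 0.49 without control replicate 1.

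Set against *Vcan* in the same heart, *Hapln1* was also higher. The ratio of CPM per kb, *Hapln1* over *Vcan*, was 0.35, 0.20 and 0.14 in control replicates 1 to 3 and 0.44, 0.50 and 0.43 in mutant replicates 1 to 3. The ratio of *Has2* to *Vcan* overlapped between the groups, with means of 0.061 ± 0.011 and 0.064 ± 0.012, as did that of *Cd44* to *Vcan*, with means of 0.56 ± 0.015 and 0.57 ± 0.070. The ratio of *Acan* to *Vcan* was lower without overlap, with means of 0.0099 ± 0.0043 and 0.0029 ± 0.00027.

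*Acan* encodes aggrecan. It was at the edge of detection, with 26, 31 and 40 reads in control replicates 1 to 3 and 47, 14 and 10 in mutant replicates 1 to 3, whose library totals differ. Scaled, this gave 0.68, 1.06 and 1.23 CPM against 0.51, 0.33 and 0.34 CPM. The mutant-labelled hearts were lower without overlap, the log2 fold change was -1.28 ± 0.34 (SE), the lowest of the 10 genes, and leaving out each heart gave -1.55 to -1.09. Aggrecan thus lay opposite in direction to the link protein it shares with versican.

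*Cd44* encodes a cell surface receptor for hyaluronan. It had 68.4, 38.9 and 57.4 CPM in control replicates 1 to 3 and 71.4, 70.2 and 64.6 CPM in mutant replicates 1 to 3. Control replicate 1 fell within the range of the mutant-labelled hearts, and control replicate 2 was the lowest heart. The log2 fold change was 0.32 ± 0.18 (SE), from 0.13 without control replicate 2 to 0.51 without control replicate 1.

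The 3 versican-cleaving proteases did not share a direction. *Adamts1*, which is made by endocardium among other cells, had 77.7, 59.3 and 88.5 CPM in control replicates 1 to 3 and 90.6, 81.3 and 85.3 CPM in mutant replicates 1 to 3, with a log2 fold change of 0.19 ± 0.13 (SE). *Adamts5*, which is needed for valve leaflets to thin, had 19.7, 10.3 and 18.4 CPM against 18.5, 18.1 and 13.8 CPM. Its log2 fold change of 0.06 ± 0.23 (SE) was smaller than its error, and the sign turned without control replicate 2, at -0.18, and without mutant replicate 1, at -0.02. *Adamts9* had 59.3, 70.6 and 79.5 CPM against 64.0, 56.5 and 51.1 CPM. It was lower by a log2 fold change of -0.29 ± 0.12 (SE), with mutant replicate 1 between control replicates 1 and 2.

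*Sox9* encodes a transcription factor of cushion mesenchyme and cartilage. It had 20.3, 15.6 and 14.0 CPM in control replicates 1 to 3 and 22.7, 20.9 and 20.9 CPM in mutant replicates 1 to 3. The groups did not overlap, although control replicate 1 was within 1 CPM of mutant replicates 2 and 3. The log2 fold change was 0.37 ± 0.14 (SE), from 0.26 without control replicate 3 to 0.54 without control replicate 1.

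*Postn* encodes periostin, a protein of fibrous valve matrix and cardiac fibroblasts. It had 601, 509 and 553 CPM in control replicates 1 to 3 and 426, 387 and 418 CPM in mutant replicates 1 to 3. The groups were well apart, and with 12235 reads or more per heart counting error was small. The log2 fold change was -0.43 ± 0.09 (SE) and stayed between -0.49 and -0.37 when each heart was left out. The ratio of *Postn* to *Vcan* per kb was 3.98, 5.68 and 4.15 in control replicates 1 to 3 and 2.28, 2.66 and 3.04 in mutant replicates 1 to 3, again without overlap.

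**Figure D2:**
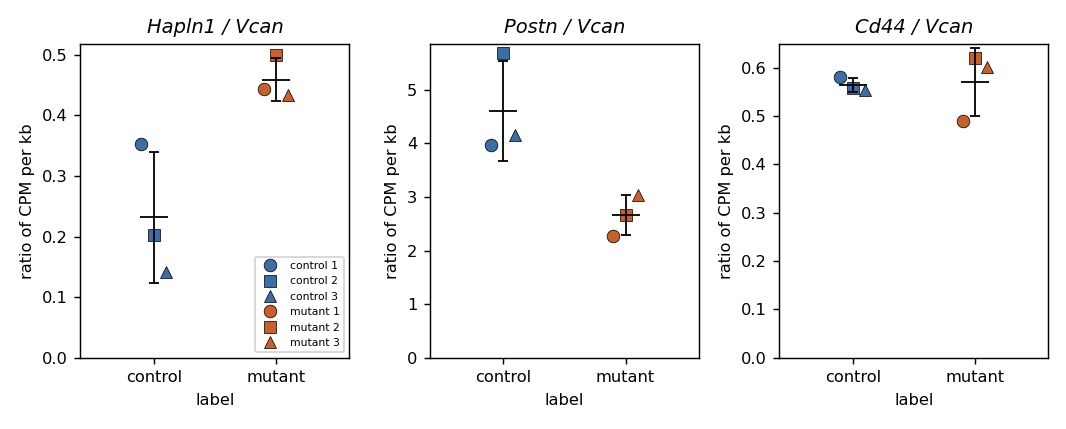
Ratios of CPM per kb of *Hapln1*, *Postn* and *Cd44* to *Vcan* in each heart, with mean and SD of 3 hearts. The 3 mutant-labelled hearts lie above the controls for *Hapln1*, between 0.43 and 0.50, and below them for *Postn*, between 2.28 and 3.04, and the groups overlap for *Cd44*.

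The control hearts differed among themselves in these genes. Control replicate 1 was the control nearest to the mutant-labelled mean for 7 of the 10 genes, all but *Adamts1*, *Adamts5* and *Postn*. The share of all genes for which it was nearest was not computed. Leaving it out raised edgeR's calls over all tested genes from 0 to 742, so its influence was not particular to these genes. Control replicate 2 was the lowest of all 6 hearts for 6 genes, *Has2*, *Hapln1*, *Vcan*, *Cd44*, *Adamts1* and *Adamts5*. Leaving out control replicate 1 put the median log2 fold change of the 10 genes at 0.36, and leaving out control replicate 2 put it at 0.09.

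**Figure D3:**
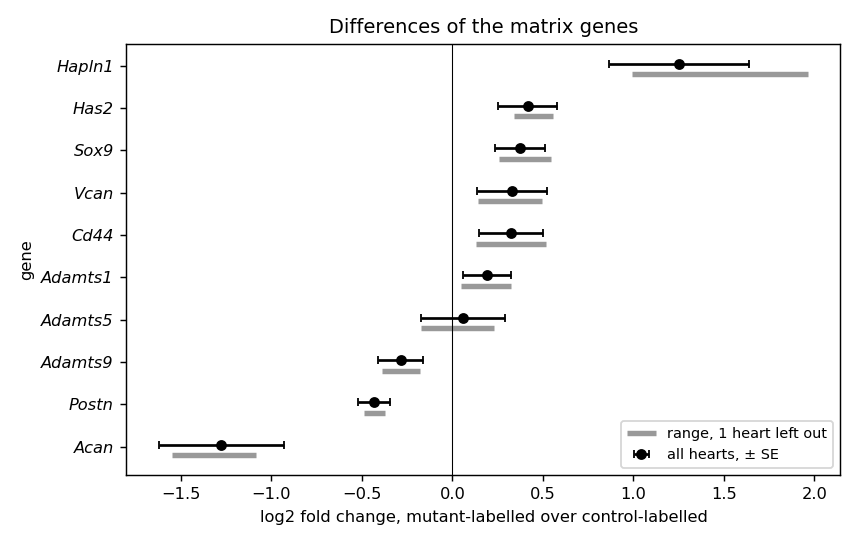
Log2 fold change of each gene, mutant-labelled over control-labelled, with SE from all 6 hearts (points) and the range when each heart is left out in turn (grey bars). *Hapln1* is highest at 1.25 and *Acan* lowest at -1.28, and the bar of *Adamts5* crosses 0.

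Against the background of all genes, these counts stand as follows, and nothing is read from them because the genes were chosen on this contrast. At an adjusted p under 0.05, edgeR called 0 of the 10 genes higher and 0 lower, where it called 0% and 0% of the 17125 genes, the smallest adjusted p being 0.053. DESeq2 called 0 higher and 1 lower, *Postn*, where it called 2.67% and 3.43% of 16614 genes. At an unadjusted p under 0.05 by edgeR, 3 were higher (*Has2*, *Hapln1* and *Sox9*) and 3 lower (*Adamts9*, *Acan* and *Postn*), where 9.48% and 9.98% of all genes were. Groups that did not overlap were found for 3 genes in the higher direction and 2 in the lower, and for 14.3% and 12.8% of all genes. Without control replicate 1, edgeR called *Hapln1* and *Sox9* higher and 0 of the 10 lower at an adjusted p under 0.05, where it called 1.88% and 2.45% of all genes.

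Cartilage markers moved with *Hapln1* and *Sox9*. Of the 12 genes of the cartilage list, 8 were tested, and all 8 had a fitted log2 fold change above 0. That of *Cnmd* was 0.02 ± 0.37 (SE), with a lower mean CPM in mutant-labelled hearts. For 5 of the 8 the mutant-labelled hearts were higher without overlap, as they were for 14.3% of all genes. The summed level of the list was 23.9 to 55.2 CPM in control-labelled and 91.3 to 105 CPM in mutant-labelled hearts. *Col2a1*, the main cartilage collagen, which valve precursors also make, had 23.3, 4.29 and 4.11 CPM in control replicates 1 to 3 and 49.9, 48.5 and 46.4 CPM in mutant replicates 1 to 3. Control replicate 1 stood apart from the other controls here as it did for *Hapln1*. Set against *Col2a1*, *Hapln1* was lower in mutant-labelled hearts, with a ratio of CPM per kb of 2.42, 4.47 and 4.85 in control replicates 1 to 3 and 1.76, 1.59 and 1.37 in mutant replicates 1 to 3. Of the same list, *Matn1*, *Matn3*, *Ucma*, *Col10a1* and *Cnmd* had under 1 CPM in every heart. *Matn4*, at 3.14 ± 1.54 CPM in control-labelled and 6.51 ± 2.24 CPM in mutant-labelled hearts, was higher without overlap. *Comp* and *Col11a2* overlapped, with log2 fold changes of 0.58 ± 0.29 and 0.15 ± 0.22 (SE). *Acan*, which is not in the list, was lower, as above. DESeq2 called 3 of the list higher, *Col9a1*, *Col9a2* and *Col9a3*, with adjusted p of 0.0015, 5.08e-07 and 0.0032, where it called 2.67% of all genes higher. By edgeR 0 were called, with 5 higher at an unadjusted p under 0.05, where 9.48% of all genes were. The part of the cartilage markers, or of the tissue dissected with each heart, in the levels of *Hapln1* and *Sox9* was not tested.

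The endocardial list overlapped between the groups, with a summed level of 298 to 469 CPM in control-labelled and 416 to 486 CPM in mutant-labelled hearts. Lung and liver markers had under 1 CPM in every heart. Erythroid markers, led by *Hbb-bt*, summed to 1921 to 8845 CPM in control-labelled and 1122 to 1933 CPM in mutant-labelled hearts. *Dpt*, a fibroblast matrix gene, had 20.4 to 47.0 CPM in control-labelled and 8.94 to 10.2 CPM in mutant-labelled hearts, lower as *Postn* was, while *Col1a1*, *Col3a1*, *Pdgfra* and *Tcf21* overlapped. The part of blood or of fibroblasts in the levels of *Postn* was not tested.

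The rest of the matrix was followed through 101 other genes in 9 lists, of which 88 were tested, 52 with a higher and 36 with a lower log2 fold change and a median of 0.08. None of the 88 passed edgeR's adjusted p, whereas an unadjusted p under 0.05 was reached by 18 in the higher direction and 11 in the lower, against 9.48% and 9.98% of all genes. DESeq2 called 8 higher and 6 lower, against 2.67% and 3.43% of all genes. Without control replicate 1, edgeR called 6 higher (*Cemip*, *Adamts10*, *Twist1*, *Sox5*, *Tgfb2* and *Bmp4*) and 5 lower (*Itih5*, *Dcn*, *Aspn*, *Prrx1* and *Eln*). In that setting it called 1.88% of all genes higher and 2.45% lower. Leaving out any other heart gave 0 of the 88. Adjusted p below are Benjamini-Hochberg values over all genes, and those called edgeR's come from its quasi-likelihood test.

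Of the genes that make hyaluronan and its precursors, 3 of 4 were tested and 0 moved. *Has3*, the synthase that makes shorter chains, had a log2 fold change of -0.06 ± 0.19 (SE), and *Ugdh*, which makes the UDP-glucuronate that the synthases and the chondroitin enzymes use, had 0.18 ± 0.09. For comparison *Has3* had 3.17 ± 0.38 CPM in control-labelled hearts, close to the level of *Has2* before length is taken into account.

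Among the 13 tested genes of hyaluronan turnover and its receptors, an unadjusted p under 0.05 was reached by 2 in each direction. Over all genes 9.48% reached it in the higher and 9.98% in the lower direction. *Cemip*, which depolymerises hyaluronan, had 8.93, 5.65 and 6.88 CPM in control replicates 1 to 3 and 11.8, 10.1 and 10.4 CPM in mutant replicates 1 to 3. Its log2 fold change of 0.59 ± 0.17 (SE) had an adjusted p of 0.14 by edgeR and 0.037 by DESeq2. *Itih5*, an inter-alpha-trypsin inhibitor heavy chain of the kind that binds hyaluronan, went the other way, from 17.3 ± 1.44 to 12.5 ± 0.59 CPM, with adjusted p of 0.089 by edgeR and 0.0085 by DESeq2. *Lyve1*, a hyaluronan receptor of lymphatic endothelium and macrophages, had 12.0 ± 1.85 CPM against 8.80 ± 0.39 CPM and passed neither, with adjusted p of 0.15 by edgeR and 0.062 by DESeq2. *Itih3*, another such heavy chain, was low, with 0.79, 0.75 and 0.22 CPM in control replicates 1 to 3 and 1.21, 0.99 and 1.30 CPM in mutant replicates 1 to 3, without overlap, and its log2 fold change of 0.99 ± 0.43 (SE) had adjusted p of 0.26 by edgeR and 0.23 by DESeq2. The receptors thus did not go one way, since *Cd44* lay higher in mean and *Lyve1* lower.

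The other link proteins and lecticans were nearly silent. *Hapln3* had 1.31 ± 0.54 CPM in control-labelled and 1.68 ± 0.11 CPM in mutant-labelled hearts, a log2 fold change of 0.36 ± 0.33 (SE), and the other 4 of the list had under 1 CPM in every heart. *Hapln1* was therefore the main link protein transcript of these hearts.

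Small leucine-rich proteoglycans, which bind collagen fibrils and not hyaluronan, were divided in direction. Of 8 tested, 5 had a negative log2 fold change, where 49.7% of all genes had a positive one. Of the 5, 4 were lower without overlap (12.8% of all genes), and DESeq2 called those 4 lower (3.43% of all genes). By edgeR 0 were called, with 4 lower at an unadjusted p under 0.05 (9.98% of all genes). *Aspn*, asporin, had the largest fall of these 4, with 18.8, 30.1 and 28.3 CPM in control replicates 1 to 3 and 11.5, 9.59 and 9.54 CPM in mutant replicates 1 to 3. Its log2 fold change was -1.33 ± 0.18 (SE), with adjusted p of 0.065 by edgeR and 1.13e-09 by DESeq2. *Dcn*, decorin, went from 164 ± 17.4 to 119 ± 9.43 CPM, *Lum*, lumican, from 68.4 ± 6.07 to 51.1 ± 0.37 CPM and *Ogn*, osteoglycin, from 41.5 ± 1.41 to 30.6 ± 2.80 CPM, with adjusted p by DESeq2 of 0.0035, 0.0019 and 0.0039 and by edgeR of 0.091, 0.083 and 0.083. Biglycan (*Bgn*), at 130 ± 27.2 and 131 ± 6.55 CPM, did not differ beyond its spread. *Fmod*, fibromodulin, and *Prelp* had positive log2 fold changes, 0.43 ± 0.23 and 0.10 ± 0.20 (SE), with overlap. Like *Postn*, the 4 genes lower without overlap encode proteins of fibrous matrix. In the fibrous valve matrix list below, however, 6 of 9 genes had a positive log2 fold change and 3 a negative one.

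The other Adamts proteases were as divided as *Adamts1*, *Adamts5* and *Adamts9*, with 6 of 13 tested above 0 on the log2 scale and 7 below. *Adamts10*, which acts on microfibrils, had 26.4, 20.5 and 23.2 CPM in control replicates 1 to 3 and 43.1, 33.5 and 33.5 CPM in mutant replicates 1 to 3, and its log2 fold change of 0.65 ± 0.13 (SE) had adjusted p of 0.083 by edgeR and 0.00093 by DESeq2. *Adamts19*, a valve protease, had 38.3 ± 2.80 and 48.4 ± 5.88 CPM, with adjusted p of 0.16 by edgeR and 0.081 by DESeq2. Of the 5 tested inhibitors and cofactors, only *Fbln1*, fibulin-1, a cofactor of Adamts1 in cutting its substrates, passed DESeq2, with an adjusted p of 0.017 against 0.13 by edgeR. It had 90.2, 66.7 and 91.2 CPM in control replicates 1 to 3 and 109, 109 and 126 CPM in mutant replicates 1 to 3. *Timp3*, an inhibitor of Adamts proteases, had a log2 fold change of -0.10 ± 0.10 (SE).

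The enzymes that build the chondroitin sulfate chains of versican moved little. Of 19 tested, 11 had a positive and 8 a negative log2 fold change, and DESeq2 and edgeR called 0. An unadjusted p under 0.05 was reached by 4 above and 2 below 0, against 9.48% and 9.98% of all genes. The 4 were *Chpf2*, a chain polymerising factor, *B3gat3*, which completes the linker to the core protein, and the chondroitin 4-sulfotransferases *Chst11* and *Chst12*, with log2 fold changes between 0.23 and 0.43. The 2 were *Chst7* and *Chst15*, which act at the 6 position, at -0.37 and -0.35.

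Of the 16 regulators of cushion mesenchyme, all tested, 13 had a higher and 3 a lower log2 fold change, with a median of 0.27, where 49.7% of all genes were higher. DESeq2 called 5 higher and 1 lower (2.67% and 3.43% of all genes) while edgeR called 0. An unadjusted p under 0.05 was reached by 7 above and 1 below 0 (9.48% and 9.98% of all genes). *Twist1*, which keeps cushion cells mesenchymal, had 10.4, 5.52 and 4.72 CPM in control replicates 1 to 3 and 12.4, 13.05 and 14.8 CPM in mutant replicates 1 to 3. Its log2 fold change was 0.96 ± 0.27 (SE), with adjusted p of 0.13 by edgeR and 0.0064 by DESeq2, and control replicate 1 was again the nearest control. *Msx2* (0.89 ± 0.20), *Bmp4* (0.74 ± 0.17), *Prrx2* (0.66 ± 0.17) and *Sox5* (0.66 ± 0.17), a partner of *Sox9* in cartilage, were the others that DESeq2 called higher, with adjusted p of 0.012, 0.0033, 0.0058 and 0.022. *Sox6*, of the same list, had a log2 fold change of 0.02 ± 0.11 (SE), with overlap. *Prrx1* went lower, from 24.6 ± 1.27 to 17.1 ± 0.47 CPM, with adjusted p of 0.065 by edgeR and 0.00020 by DESeq2, so the paired genes *Prrx1* and *Prrx2* lay in opposite directions. *Bmp2*, the myocardial signal that starts cushion formation, had a log2 fold change of 0.30 ± 0.10 (SE) and passed neither.

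Among 9 genes of fibrous valve matrix 0 passed either tool. *Eln*, elastin, had 101, 111 and 342 CPM in control replicates 1 to 3 and 66.0, 60.7 and 57.8 CPM in mutant replicates 1 to 3. All mutant-labelled hearts were lower, but control replicate 3 was far above the other controls, and the log2 fold change was -1.59 ± 0.43 (SE). *Fn1*, fibronectin, a matrix glycoprotein that cells adhere to, had 385, 221 and 453 CPM against 629, 469 and 475 CPM, without overlap. *Bmp1*, a protease that trims procollagens, had 61.1 ± 4.35 and 71.1 ± 2.28 CPM, with adjusted p of 0.18 by both tools.

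**Figure D4:**
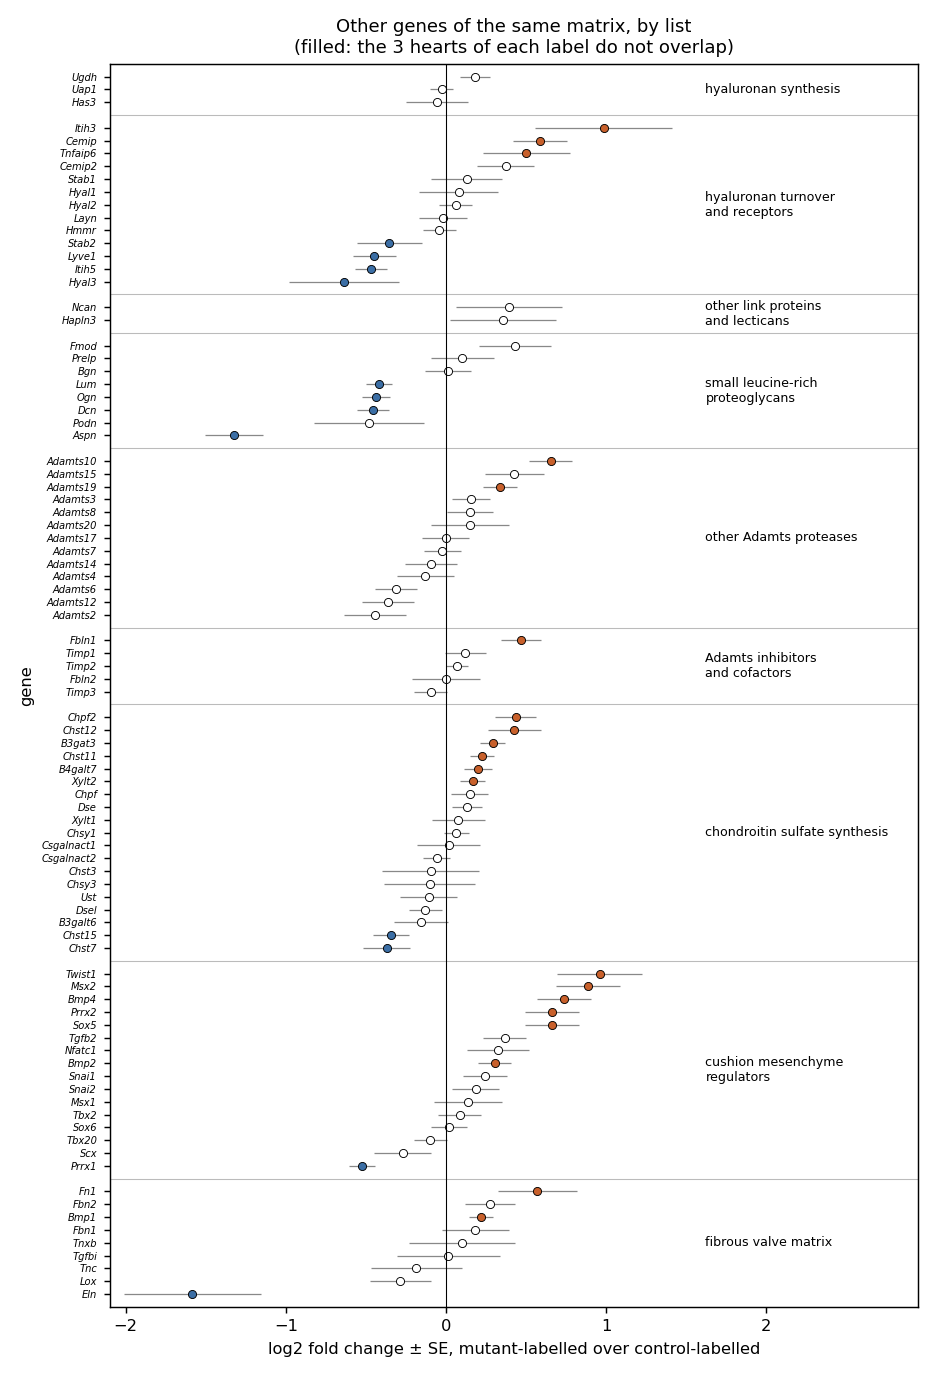
Log2 fold change with SE of the 88 tested genes of the 9 lists, mutant-labelled over control-labelled, with filled points where the 3 hearts of each label do not overlap (20 higher, 12 lower). Over all 17125 genes, 14.3% were higher and 12.8% lower without overlap. Small leucine-rich proteoglycans reach from -1.33 to 0.43, and 13 of the 16 regulators of cushion mesenchyme lie to the right of 0.

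**Figure D5:**
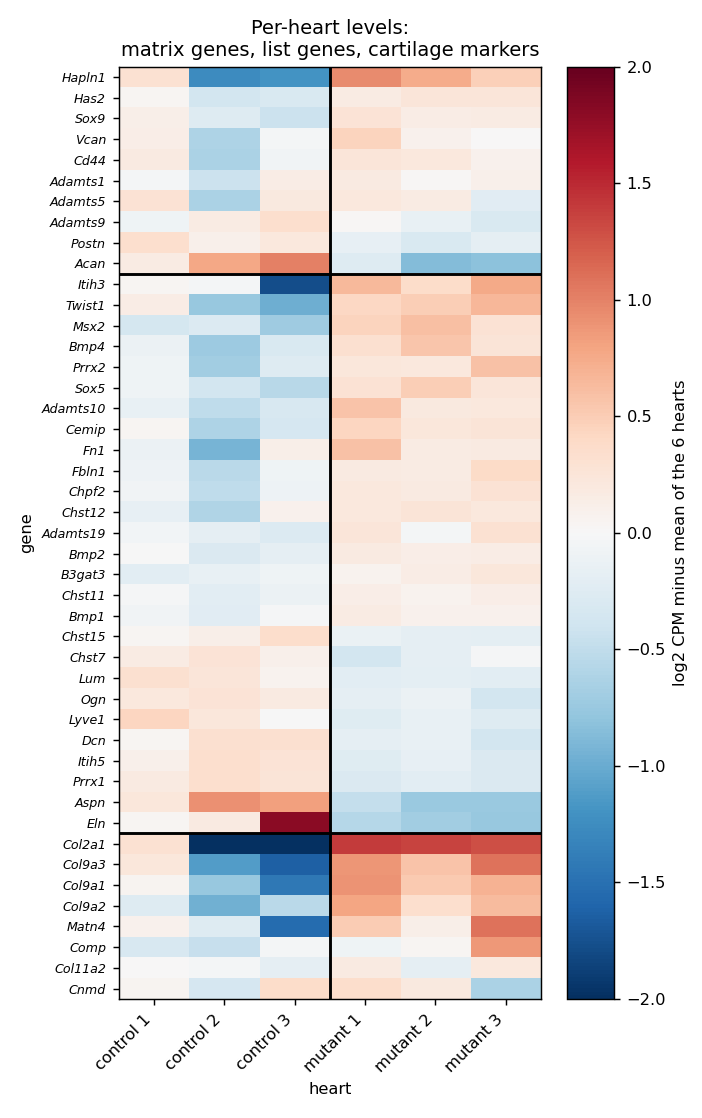
Log2 CPM (with 0.01 added) minus the mean of the 6 hearts for the 10 genes (top), the genes of the lists named for their unadjusted p and lack of overlap (middle) and the tested cartilage markers (bottom). Colours end at -2 and 2, and control replicate 1 is nearer than the other controls to the mutant-labelled hearts for *Hapln1*, *Twist1* and *Col2a1*.

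Over the 6 hearts, the genes whose log2(CPM + 1) followed *Hapln1* most closely were *Capn6*, *Gpd2*, *Ccnk*, *Meg3* and *Cx3cr1*, with Pearson correlations between 0.994 and 0.999 among 11779 genes with a mean of at least 5 CPM. *Capn6*, for example, had 275, 153 and 161 CPM in control replicates 1 to 3 and 346, 319 and 297 CPM in mutant replicates 1 to 3, with control replicate 1 again between the other controls and the mutant-labelled hearts. For *Acan* they were *Cep85l*, *Dysf*, *Serping1*, *Slc38a2* and *Npas2*, at 0.994 to 0.997. These are the highest values of a search over all those genes in 6 hearts, and they are given as a description.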

How the data were processed

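RNA from 6 whole hearts (3 per label) was sequenced by the authors as paired-end reads, mapped with STAR 2.4.2a to GRCm38 with a GENCODE annotation and counted per gene with summarizeOverlaps, per the methods and the submitters' processing notes. The authors deposited raw counts, used here without change, and a table of their DESeq2 comparison, from which only gene symbols were taken. No count column lacked a sample. Between 28948836 and 89675692 counts per heart were available.

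The analysis used edgeR 4.0.16 under R 4.3.3: filterByExpr (minimum count 10, minimum total 15), TMM scaling and a quasi-likelihood fit on condition alone, with Benjamini-Hochberg adjustment over 17125 genes and a threshold of 0.05. The SE is the log2 fold change divided by the square root of F. Precision was limited mainly by variation between hearts (common biological coefficient of variation, 0.153) and, for *Acan*, by its few reads. Exon lengths and positions came from GENCODE vM21 on GRCm38. The steps were tested on simulated counts. Alternatives were DESeq2 1.42.0, RLE scaling, other filters, thinning, leaving out each heart and a replicate block.

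The 10 genes, the 9 lists and the marker lists were chosen with earlier results of these data known. Named were all 10 genes and, of each list, the genes past an unadjusted p of 0.05 whose groups do not overlap, or otherwise its highest and lowest gene averaging at least 1 CPM, and the 5 genes that followed *Hapln1* or *Acan* most closely. *Bgn*, *Fmod*, *Prelp*, *Sox6*, *Timp3*, *Dpt* and the markers named singly were picked after their values were seen.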

Additional observations from a re-analysis of the deposited data

How the results depend on the processing

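Over all tested genes edgeR called 0 (an unadjusted p under 0.05 was reached by 1624 above and 1709 below 0), whereas DESeq2 called 1013, edgeR on all genes with at least 1 count 603, edgeR on counts thinned to the smallest total 1, and edgeR with the replicate number as a block 14. Leaving out each heart gave 0 to 742 genes, with 742 without control replicate 1 and 1 without control replicate 2. Of the genes of the 9 lists edgeR called 0, DESeq2 14, edgeR on all genes with at least 1 count 12 and the replicate block 0, and leaving out each heart gave 0 to 11, with 11 without control replicate 1. The cause of these shifts was not tested. Between the 2 hearts of the same replicate number, deviations from the group means had correlations of 0.009, -0.116 and -0.094 for numbers 1 to 3. These values cannot show whether such hearts shared a litter or batch. The log2 fold changes of the 10 genes moved by less than the SD between single hearts in 118 of 119 combinations of gene and alternative. The exception was *Hapln1* without control replicate 1, at 1.96, and the sign changed in 2, both for *Adamts5*. Leaving out 1 of 3 hearts can hardly move a group mean by that SD, so this count says little about robustness. *Vcan*, for example, stayed within it while going from 0.33 to 0.14 without control replicate 2. The median log2 fold change of the 10 genes was 0.09 to 0.36 when each heart was left out. The log2 fold change of *Ino80* was then 0.06 to 0.15. *Acan* has no value under a filter of at least 1 CPM in 3 hearts, and its 10 to 47 reads per heart limit its precision.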

Other observations

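Genes of other compartments that share these hearts were described by the same fit. Atrial *Nr2f1*, a nuclear receptor, had 3.42, 4.77 and 5.93 CPM in control replicates 1 to 3 and 8.52, 10.9 and 7.69 CPM in mutant replicates 1 to 3, and *Myl7*, the atrial myosin light chain, had 262, 207 and 319 CPM against 360, 541 and 370 CPM, with adjusted p of 0.0024 and 0.0069 by DESeq2 and 0.10 and 0.14 by edgeR with Benjamini-Hochberg adjustment. Of the other 3 atrial genes, *Nr2f2* was higher without overlap but passed neither tool, and *Nppa* and *Sln* overlapped, with log2 fold changes of 0.25 ± 0.29 and -0.17 ± 0.58 (SE). *Upk3b*, a mesothelial gene of the epicardium, had 36.0 to 46.6 CPM in control-labelled and 55.7 to 66.8 CPM in mutant-labelled hearts, while *Upk1b*, of the same epicardial list, went the other way without overlap, averaging 8.35 ± 0.61 (SD) CPM in the 3 control-labelled and 6.87 ± 0.54 (SD) CPM in the 3 mutant-labelled hearts, and *Wt1*, *Msln* and *Aldh1a2* overlapped. The cell types behind these values were not tested.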
